A study of Zea mays with 6 samples.

Results

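The genes described here are those whose deposited description names the machinery of the photosynthetic light reactions: a photosystem, a chlorophyll a-b binding protein, the oxygen-evolving complex, cytochrome b6, plastocyanin, ferredoxin or the thylakoid. The rule found 76 of the 39634 maize genes listed. Of these, 58 were tested and 18 were too low to test. RNA had been sequenced from leaves of 2-week-old seedlings of the inbred line B73 in 3 conditions with 2 biological replicates each, with several plants used for each treatment point. Watered plants (W) received no stress. S1 plants were harvested after a single air-drying of 2 h, and S3 plants after 3 such exposures, each followed by 22 h in water before the next. No library was made from recovered plants before the third exposure, so S3 holds whatever the earlier cycles left together with the response to the last one. The seedlings had been taken out of soil before the first exposure. S3 plants were therefore also older and longer out of soil at harvest than S1 plants. The harvest time of W plants is not given. Age and time out of soil cannot be told apart from repeated drying in these samples.

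Light energy is collected by antenna proteins that carry chlorophyll and is passed to the reaction centres of photosystem II (PSII) and photosystem I (PSI) in the thylakoid membrane. PSII takes electrons from water at the oxygen-evolving complex, the cytochrome b6-f complex and the small copper protein plastocyanin pass them to PSI, and ferredoxin receives them on the stromal side. Ferredoxin-NADP reductase then makes NADPH, and other ferredoxin-using enzymes feed nitrogen assimilation and redox control. Maize is a C4 plant whose mesophyll and bundle sheath cells hold chloroplasts of unlike composition. Most antenna and small subunits are encoded in the nucleus, and the chlorophyll-binding core subunits in the plastid genome.

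Members were placed in classes by their descriptions: 13 light-harvesting genes (12 tested), 13 PSI genes (11 tested), 22 PSII genes (14 tested), 6 cytochrome b6-f genes (1 tested), 1 plastocyanin gene, 12 genes of ferredoxin and ferredoxin-NADP reductase (11 tested) and 3 other thylakoid genes, all tested. The remaining 6 genes (5 tested) name a ferredoxin-using enzyme or a plastocyanin-like protein outside the electron transport chain. Values are FPKM, fragments scaled by transcript length and by the size of the library, so they can be compared between genes. A gene was tested when it reached 1 FPKM in at least 2 libraries. It was called in a comparison when limma gave an adjusted p of at most 0.05 and the log2 fold change, taken on the log2(FPKM + 1) scale, reached 1 or more in size. The added 1 makes changes of genes with low FPKM look smaller than they were.

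The 6 libraries summed to between 568731 and 672411 FPKM over all genes. The study gives the total reads of each condition, and these were similar. FPKM keep no read counts, so the number of reads behind the value of each gene is unknown. The leaf identity of the samples was checked with genes a leaf should lack. Of 24 zein genes 20 were listed at 0 in every library, as were 5 of 6 root cap genes and 8 of 10 pollen allergen genes, and no root cap or pollen allergen gene reached 1 FPKM. Among the zein genes 2 reached 1 FPKM: GRMZM2G094532, described as a zein protein-body ER membrane protein, with 15.4 to 24.5 FPKM in the 6 libraries, and AF546188.1_FG005, an alpha zein, with at most 1.30 FPKM. The replicates did not agree equally well for the light reaction genes. In W, replicate 1 was above replicate 2 in 57 of the 58 genes, by a median of 0.59 on the log2 scale, where the median over all genes tested was 0.04. In S3, replicate 2 was the higher one in 52 of 58 genes, and the median of replicate 1 minus replicate 2 was -0.43 against -0.08 over all genes. In S1 the split was 27 to 31.

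**Figure D1:**
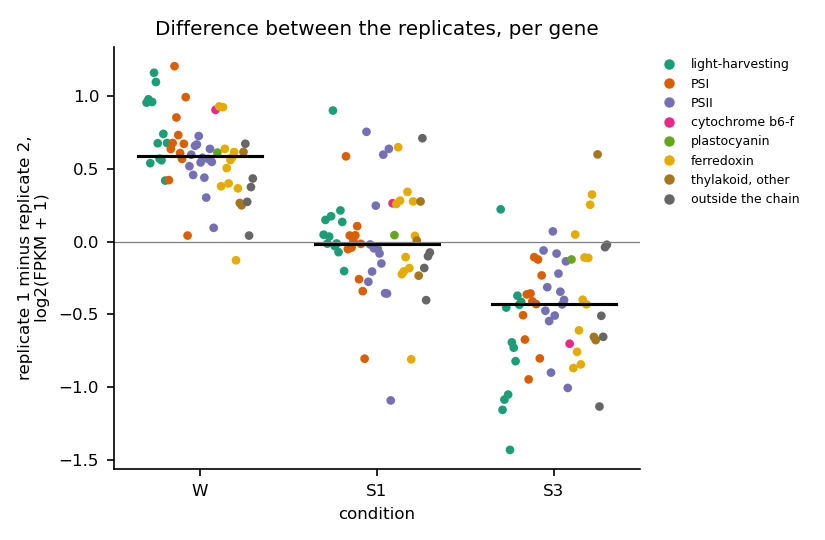
Difference between the replicates of each condition (replicate 1 minus replicate 2 on the log2(FPKM + 1) scale, y axis) for the 58 genes tested, 1 point a gene, coloured by class, with a black line at the median. The W points lie above 0 in 57 of 58 genes, the S3 points below 0 in 52, and the S1 points on both sides.

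Together the 76 genes summed to 79681 and 49587 FPKM in the W replicates, to 52839 and 54156 FPKM in those of S1, and to 16707 and 23945 FPKM in those of S3. Both S3 libraries were below every W and S1 library. As a share of all FPKM in a library the W replicates reached 11.8% and 8.72%, the S1 replicates 8.63% and 8.29%, and the S3 replicates 2.93% and 3.92%. The S3 mean was 38.0% of the S1 mean, and 31.4% of the W mean, whereas the S1 mean was 82.8% of the W mean and lay within the range of the W replicates. In bulk leaf samples, fewer cells of a type and less RNA per cell cannot be told apart.

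**Figure D2:**
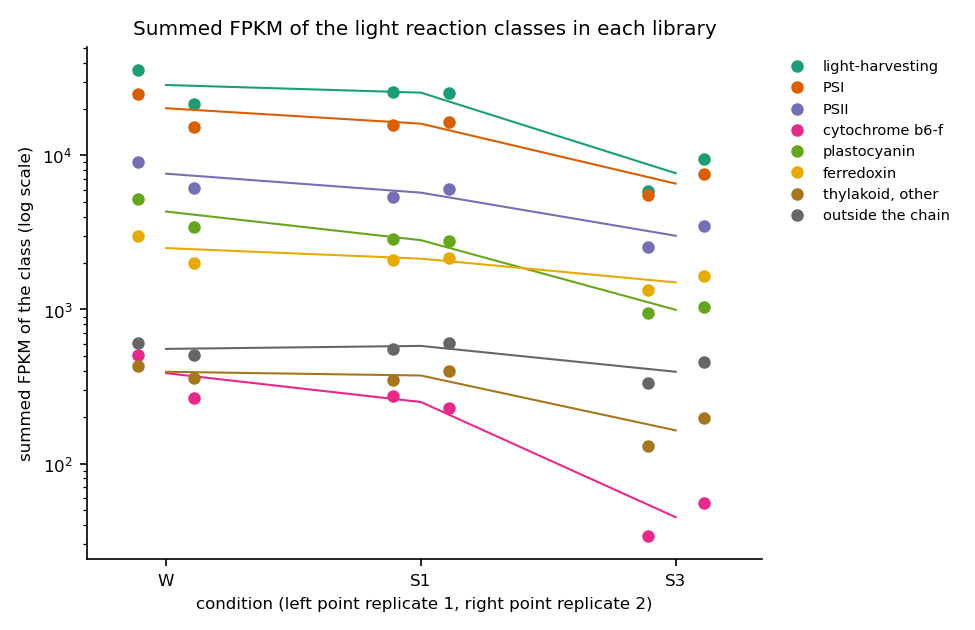
Summed FPKM of each class (y axis, log scale) in the 6 libraries, grouped by condition, with lines through the condition means. The light-harvesting sum was 35676 and 21594 in W and 5860 and 9463 in S3, and the plastocyanin, PSI and PSII sums were likewise lower in both S3 libraries than in any W or S1 library.

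The first comparison, S1 against W, asks which genes answered a first dehydration. Of the 58 light reaction genes, 2 were lower in S1 and 2 were higher. The same calls took in 1.54% of all genes tested as lower and 7.51% as higher. Both lower genes belonged to PSII. GRMZM2G056424, a PSII 11 kD protein, had W levels of 198 and 145 FPKM and S1 levels of 74.1 and 82.3, a log2 fold change of -1.11 (SE 0.20, adjusted p = 0.01 with limma). GRMZM2G021256, an oxygen-evolving enhancer protein 3, had W levels of 25.5 and 17.5 FPKM and S1 levels of 13.0 and 7.32 (log2 fold change -1.04, SE 0.28, adjusted p = 0.043). The groups did not overlap in either gene, but both S1 libraries were below both W libraries in 31.7% of all genes tested. Neither of the 2 genes was called without W replicate 1. Both higher genes were ferredoxins and are described with the electron carriers.

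Over the 58 genes the median log2 fold change of S1 against W was -0.26, and 46 genes were below 0. The median over all genes tested was -0.01. This tilt depended on W replicate 1: without that library the median was 0.07 and 25 genes were below 0. No light-harvesting gene and no PSI gene was called in S1. Chlorophyll a-b binding protein 1 (AC207722.2_FG009), the most abundant member, had W levels of 12689 and 8604 FPKM and S1 levels of 9608 and 10098.

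The second comparison, S3 against S1, asks whether the third exposure gave another transcript level than the first. Of the 58 genes tested, 31 were lower in S3 and 1 was higher. Among all genes tested, 9.22% were called lower and 9.17% higher. The median log2 fold change was -1.21 over the 58 genes and 0.11 over all genes. In 45 of the 58 genes both S3 libraries were below both S1 libraries, a share that was 28.3% over all genes. The number of lower genes was 19 to 20 when either S1 library or S3 replicate 1 was left out and 18 without the filter on low values, and 27 to 31 of the 31 remained past 2-fold when 1 library was left out.

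S3 against W, which completes the pairs, called 39 of the 58 genes lower and 2 higher, where 8.7% of all genes were called lower and 13.3% higher. Its median was -1.40 over the light reaction genes and 0.16 over all genes, and the S3 libraries lay below both W libraries in 44 of the 58 genes, against 27.4% of all genes. Without W replicate 1, 26 genes were called lower. Both S3 comparisons use the same S3 libraries, and S1 serves in both steps of the series, so the 3 counts are not independent of each other.

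Patterns were written in the notation of the study, with the first sign for S1 against W and the second for S3 against S1. From the limma calls made here, 29 genes fell in [=/-] and 24 in [=/=], a pattern the study does not list. Each of [-/-], [-/=], [+/-], [+/=] and [=/+] held 1 gene. By these calls the second step moved many more of the genes than the first. A step that missed the threshold is not shown to be without change.

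**Figure D3:**
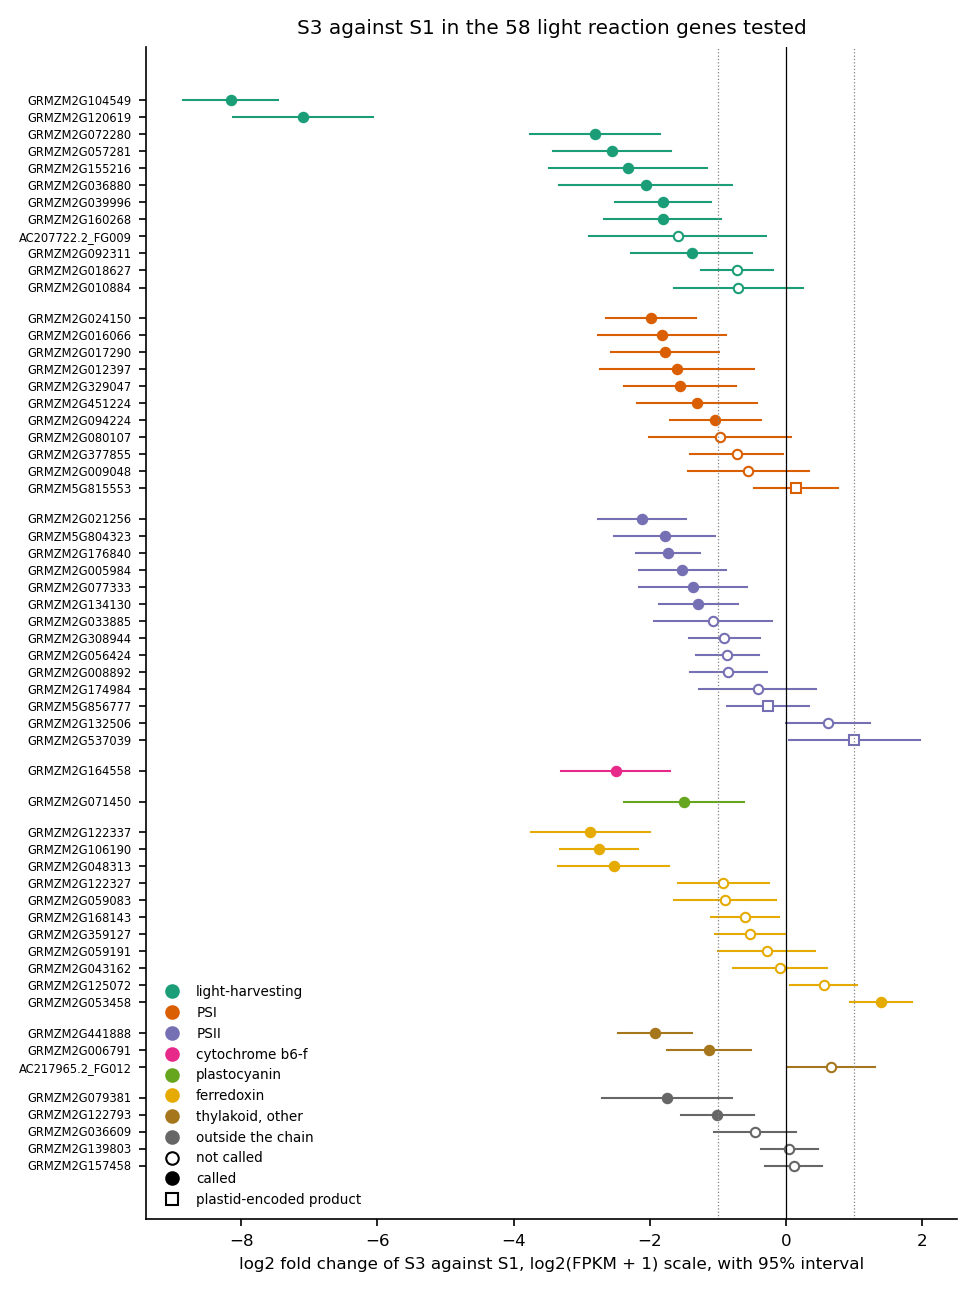
Log2 fold change of S3 against S1 on the log2(FPKM + 1) scale (x axis) with its 95% interval for the 58 genes tested (y axis, gene identifiers), grouped and coloured by class; filled points were called and squares mark products that the plastid genome encodes. All 12 light-harvesting points lie below 0, 2 of them below -7, and 1 filled point, ferredoxin III, lies above 0.

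Light-harvesting genes encode the chlorophyll a-b binding proteins of both antennae. In S3 against S1, 9 of the 12 tested were lower, with a median log2 fold change of -1.94, and in all 12 both S3 libraries were below both S1 libraries. Their sum was S1 levels of 25618 and 25467 FPKM and S3 levels of 5860 and 9463, which is 30.0% of the S1 mean. Without the filter on low values, or without S1 replicate 1, 5 of the 12 were called.

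A pair of these genes had far larger decreases from S1 to S3 than the rest of the class. GRMZM2G104549, annotated as chlorophyll a-b binding protein 2, had S1 levels of 849 and 821 FPKM and S3 levels of 2.17 and 1.71. Its mean was 429.8 times lower in S3, and its log2 fold change of -8.15 (SE 0.30, adjusted p = 2.8e-05 with limma) ranked 1 from the lowest of the 20130 genes tested. GRMZM2G120619, chlorophyll a-b binding protein 48 of the PSII antenna (LHCII), had S1 levels of 1898 and 1711 FPKM and S3 levels of 7.85 and 18.7, a log2 fold change of -7.09 (SE 0.44, adjusted p = 9.2e-05), which ranked 3 from the lowest. In S1 against W their log2 fold changes were -0.45 and -0.20, and neither was called. Together they held a small share of the antenna transcripts in S3: GRMZM2G120619 made up 7.41% and 6.72% of the light-harvesting sum in S1 and 0.134% and 0.198% in S3, and GRMZM2G104549 3.31% and 3.22% in S1 and 0.037% and 0.018% in S3.

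S3 libraries and S1 libraries come from separate runs of the quantification program. The authors' S1 value from the run that held S3 was 840.1 FPKM for GRMZM2G104549 and 1817 for GRMZM2G120619, against library means of 834.6 and 1805 from the other run. The runs thus gave the S1 level of both genes alike, as they did for all 58 genes tested, whose ratios between runs were 0.993 to 0.995. Antenna genes form a family of similar sequences, and how the counting divided reads between near-identical copies was not tested.

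The next members by size of change were still at 205 FPKM or more in S3. GRMZM2G072280, described only as a chlorophyll a-b binding protein, had S1 levels of 2091 and 2110 FPKM and S3 levels of 205 and 437 (log2 fold change -2.80, SE 0.41, adjusted p = 0.00197). GRMZM2G057281, of LHCII type III, had S1 levels of 1505 and 1468 FPKM and S3 levels of 215 and 295 (log2 fold change -2.56). GRMZM2G155216, protein M9 of LHCII, had S1 levels of 2338 and 2070 FPKM and S3 levels of 304 and 631 (log2 fold change -2.33). In each the S3 replicates differed from each other by less than either differed from S1. Of these, GRMZM2G155216 was not called in S3 against S1 when either S1 library or S3 replicate 1 was left out.

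CP24, a minor antenna protein of PSII encoded by GRMZM2G039996, had S1 levels of 247 and 252 FPKM and S3 levels of 55.1 and 89.6, a log2 fold change of -1.81 (SE 0.30, adjusted p = 0.0034). GRMZM2G160268, protein 4, also had a log2 fold change of -1.81 (adjusted p = 0.0077). Among the genes named after PSI antenna proteins of tomato, the abundant protein 6A gene GRMZM2G092311 had S1 levels of 2388 and 2057 FPKM and S3 levels of 745 and 963 (log2 fold change -1.39, adjusted p = 0.024). The second protein 6A gene, GRMZM2G036880, was less abundant, with W levels of 256 and 119 FPKM, S1 levels of 451 and 241 and S3 levels of 47.2 and 129. It was lower in S3 than in S1 (log2 fold change -2.06, adjusted p = 0.022), but its S3 libraries overlapped those of W, and S3 against W gave -1.15 with an adjusted p of 0.13.

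The remaining 3 tested light-harvesting genes were not called in S3 against S1. The most abundant transcript of the whole set, AC207722.2_FG009, had 2456 and 4343 FPKM in S3, below all 4 other libraries, with a log2 fold change of -1.59 (95% interval -2.89 to -0.30) and an adjusted p of 0.057. Against W it was called (log2 fold change -1.68, adjusted p = 0.045), a call that each library left out in turn removed. Its share of the light-harvesting sum was 35.6% and 39.8% in the W replicates, 37.5% and 39.7% in those of S1, and 41.9% and 45.9% in those of S3. Protein 8, GRMZM2G010884, named after a PSI antenna protein of tomato, had S1 levels of 2528 and 2909 FPKM and S3 levels of 1443 and 1923 (log2 fold change -0.70, 95% interval -1.65 to 0.24, adjusted p = 0.21). GRMZM2G018627 did not exceed 1.55 FPKM in any library.

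**Figure D4:**
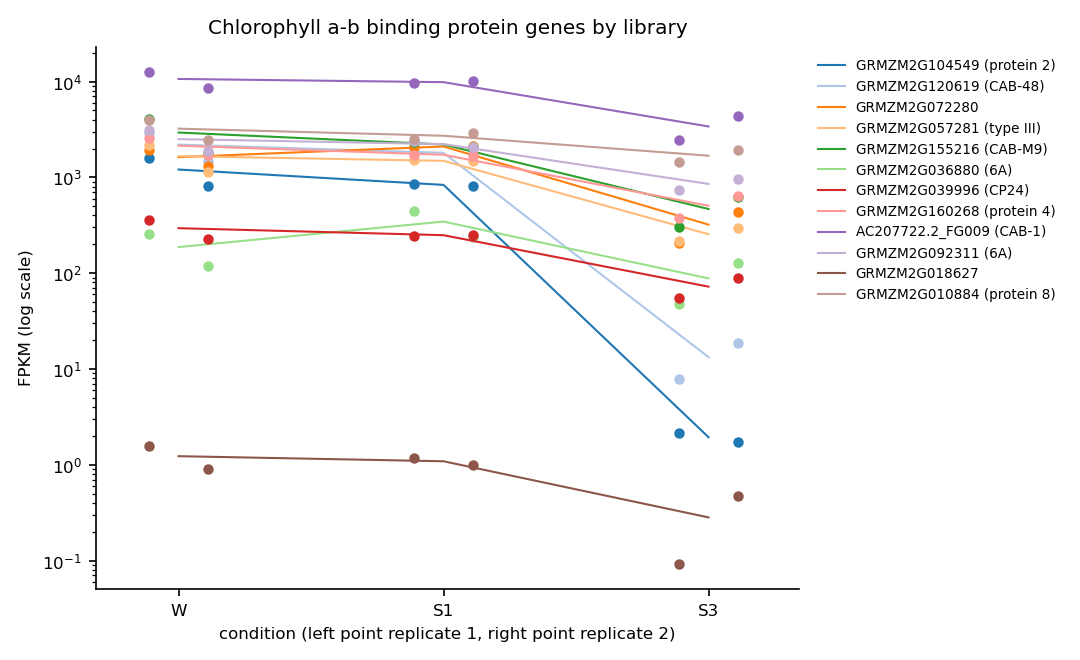
FPKM (y axis, log scale) of the 12 light-harvesting genes tested in each library, grouped by condition, with a line a gene through the condition means. Between S1 and S3 the lines of GRMZM2G104549 and GRMZM2G120619 drop from 821 to 1898 FPKM to 1.71 to 18.7 FPKM, while AC207722.2_FG009 stays the highest line in every condition.

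PSI subunits surround the reaction centre that reduces ferredoxin. Of the 11 PSI genes tested, 7 were lower in S3 than in S1, none was higher, and the median log2 fold change was -1.31. Their sum was S1 levels of 15700 and 16435 FPKM and S3 levels of 5518 and 7598, or 40.8% of the S1 mean. The number of PSI calls was lower under several alternatives: leaving out either S1 library or S3 replicate 1 left 2 calls, leaving out S3 replicate 2 left 5, and without the filter on low values 1 remained.

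The 3 PSI genes with the lowest log2 fold changes encode PsaD, PsaE and PsaF. The next gene, GRMZM2G012397, was close to them (log2 fold change -1.60, SE 0.49). Whether the 3 genes differ from the other PSI genes was not tested. GRMZM2G024150, subunit II (PsaD), which binds ferredoxin, had S1 levels of 312 and 207 FPKM and S3 levels of 53.3 and 76.1 (log2 fold change -1.98, SE 0.28, adjusted p = 0.0018). GRMZM2G016066, subunit IV A (PsaE), also on the ferredoxin side, had S1 levels of 2765 and 2864 FPKM and S3 levels of 630.0 and 1005 (log2 fold change -1.82, adjusted p = 0.011). GRMZM2G017290, subunit III (PsaF), on the plastocyanin side, had S1 levels of 1722 and 1672 FPKM and S3 levels of 436 and 560.3 (log2 fold change -1.78, adjusted p = 0.0061). In all 3 genes the S3 libraries lay below those of W and S1, and S1 overlapped W.

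Among the other PSI genes called, GRMZM2G012397, annotated as photosystem I reaction center6, had a log2 fold change of -1.60 (adjusted p = 0.036). GRMZM2G451224, subunit VI (PsaH), had S1 levels of 2182 and 2116 FPKM and S3 levels of 752 and 999 (log2 fold change -1.31, adjusted p = 0.03). Subunit XI (PsaL), GRMZM2G094224, which lies where PSI meets its neighbours in the membrane, had a log2 fold change of -1.04 (adjusted p = 0.025). Subunit V (PsaG), which anchors the PSI antenna, had a pair of genes. GRMZM2G329047 had S1 levels of 1210 and 1207 FPKM and S3 levels of 362.5 and 464 (log2 fold change -1.56, adjusted p = 0.012), and GRMZM2G377855 had S1 levels of 688 and 695 FPKM and S3 levels of 400.2 and 436 (log2 fold change -0.73, adjusted p = 0.087). The 95% intervals, -2.37 to -0.74 and -1.41 to -0.05, overlapped.

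Subunit N, a lumenal protein, was also encoded by a pair of genes. GRMZM2G080107 was the most abundant PSI transcript, with W levels of 6863 and 4622 FPKM, S1 levels of 3968 and 4745 and S3 levels of 1904 and 2564. It was not called in S3 against S1 (log2 fold change -0.97, 95% interval -2.02 to 0.07, adjusted p = 0.13), and its call in S3 against W (-1.35, adjusted p = 0.045) was lost with any 1 of the 6 libraries left out. GRMZM2G009048 had S1 levels of 157 and 199 FPKM and S3 levels of 90.9 and 159 (log2 fold change -0.55, adjusted p = 0.29). Its S3 libraries overlapped those of S1. In S3 against W, 10 of the 11 PSI genes were lower, and without the filter on low values 4 were. The exception, GRMZM5G815553, names the PsaC iron-sulfur protein, which the plastid genome encodes.

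PSII subunits surround the reaction centre that takes electrons from water. Of the 14 PSII genes tested, 6 fell from S1 to S3, the median log2 fold change being -0.99, and 10 were lower in S3 than in W with a median of -1.54. Their sum was S1 levels of 5377 and 6083 FPKM and S3 levels of 2532 and 3486, or 52.5% of the S1 mean. The counts of lower genes in S3 against S1 ran from 5 to 9 over the alternatives.

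Oxygen-evolving enhancer protein 3 (PsbQ) shields the manganese cluster on the lumenal side of PSII. Its abundant gene GRMZM5G804323 had W levels of 1710 and 1129 FPKM, S1 levels of 867 and 1049 and S3 levels of 234 and 326. The S3 libraries were below all others, and the log2 fold change against S1 was -1.78 (SE 0.32, adjusted p = 0.0045). The low gene GRMZM2G021256, already lower in S1, fell again to 1.45 and 1.55 FPKM in S3 (log2 fold change -2.11, SE 0.28, adjusted p = 0.0013), which made it the one [-/-] gene of the set. Its level in S3 was 14.4 times below that in W. The remaining tested gene of this protein, GRMZM2G008892, had S1 levels of 11.99 and 7.575 FPKM and S3 levels of 4.205 and 5.61 (log2 fold change -0.85, adjusted p = 0.028), past the adjusted p limit but short of 2-fold. GRMZM2G176840, a lumenal protein of the oxygen-evolving complex, had S1 levels of 64.8 and 65.7 FPKM and S3 levels of 16.8 and 21.2 (log2 fold change -1.74, SE 0.20, adjusted p = 0.00079).

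The PSII 22 kDa protein (PsbS), which acts in the dissipation of excess light energy, was encoded by GRMZM2G077333, with W levels of 367 and 230.4 FPKM, S1 levels of 303 and 313 and S3 levels of 86.5 and 162. Its log2 fold change from S1 to S3 was -1.37 (adjusted p = 0.017). The PSII 11 kD protein had a pair of genes, and the difference between them was not tested. GRMZM2G005984 had S1 levels of 140 and 161 FPKM and S3 levels of 42.5 and 62.5 and was lower at the second step (log2 fold change -1.52, adjusted p = 0.0048), while GRMZM2G056424 was lower at the first and had 39.4 and 46.0 FPKM in S3 (log2 fold change -0.86, adjusted p = 0.013, short of 2-fold). Their levels against W ended close together, at -1.78 and -1.97.

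Of the psbY pair, GRMZM2G134130 was lower (log2 fold change -1.29, adjusted p = 0.0065) and GRMZM2G308944 was not called (-0.90, adjusted p = 0.017). GRMZM2G033885, annotated as photosystem II subunit29 and the most abundant PSII transcript, had S1 levels of 2055 and 2124 FPKM and S3 levels of 831 and 1182 (log2 fold change -1.08, adjusted p = 0.055), and it was lower against W (-1.57, adjusted p = 0.012). GRMZM2G174984, annotated as photosystem II3, had S1 levels of 1546 and 1976 FPKM and S3 levels of 1125 and 1518 (log2 fold change -0.42, 95% interval -1.28 to 0.44, adjusted p = 0.4). It was not called in any of the 3 comparisons. GRMZM2G132506, the reaction center W protein, was low, with W levels of 8.38 and 5.41 FPKM, S1 levels of 5.10 and 2.92 and S3 levels of 6.17 and 6.88. It was not called in any comparison (S3 against S1 0.62, adjusted p = 0.1). Of the 34 tested antenna and photosystem genes whose product the plastid genome does not encode, it was the only 1 above 0 in S3 against S1.

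Among the 76 genes, 16 name products that the maize plastid genome encodes, among them the PSII core antenna proteins CP43 and CP47, cytochrome b6 and subunit 4 of the cytochrome b6-f complex. Of these, 13 were too low to test, and the source of the reads that were assigned to them, plastid or nuclear copies, was not tested. The 3 tested genes were called in none of the comparisons. PsaC (GRMZM5G815553) had W levels of 90.5 and 87.8 FPKM, S1 levels of 58.1 and 102 and S3 levels of 78.6 and 92.5 (S3 against S1 0.14, 95% interval -0.47 to 0.76, adjusted p = 0.69). CP43 (GRMZM5G856777) had S1 levels of 11.4 and 14.9 FPKM and S3 levels of 9.17 and 12.4 (-0.27, 95% interval -0.86 to 0.33, adjusted p = 0.45). The conditions overlapped in both. PSII-I (GRMZM2G537039) was listed at 0 in S1 replicate 1 and did not exceed 3.15 FPKM. The 34 tested antenna and photosystem genes with other products had 22 calls lower in S3 against S1 and 29 in S3 against W. A test of the difference between these groups was not run. The libraries were made with an mRNA preparation kit, and how fully they captured plastid transcripts was not tested. The values therefore do not show whether transcripts of plastid-encoded subunits kept their level.

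The cytochrome b6-f complex and plastocyanin carry electrons from PSII to PSI. The only tested gene of the cytochrome b6-f class, GRMZM2G164558, annotated with the enzyme name of the complex (plastoquinol-plastocyanin reductase), had W levels of 503 and 268 FPKM, S1 levels of 273 and 227 and S3 levels of 33.7 and 55.4. The S3 libraries were far below the others, and the log2 fold change against S1 was -2.50 (SE 0.35, adjusted p = 0.0016). Plastocyanin, GRMZM2G071450, had W levels of 5227 and 3417 FPKM, S1 levels of 2861 and 2773 and S3 levels of 953 and 1037. Its 3 conditions did not overlap. Only the step from S1 to S3 was called (log2 fold change -1.50, SE 0.38, adjusted p = 0.018), and that call was lost when either S1 or either S3 library was left out. In S3 against W plastocyanin had a log2 fold change of -2.09 (adjusted p = 0.0039).

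The ferredoxin genes did not move together. Of the 11 tested, 3 were lower in S3 than in S1, 1 was higher and 7 were not called, and the median log2 fold change was -0.60. The known maize isoforms differ in where they act: ferredoxin I (Fd I) is a leaf protein of photosynthetic electron transport, and Fd III and Fd VI are known from tissue that does not photosynthesise.

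Fd I, GRMZM2G122337, had W levels of 632 and 331 FPKM, S1 levels of 359 and 300 and S3 levels of 32.2 and 59.6. Both S3 libraries were below all others (log2 fold change against S1 -2.88, SE 0.38, adjusted p = 0.0013). Ferredoxin2, GRMZM2G048313, had S1 levels of 152 and 125 FPKM and S3 levels of 17.4 and 30.1 (log2 fold change -2.53, SE 0.35, adjusted p = 0.0016). Fd V, GRMZM2G122327, had S1 levels of 167 and 195 FPKM and S3 levels of 76.7 and 118 and was short of 2-fold (log2 fold change -0.92, adjusted p = 0.04), but it was lower in S3 than in W (-1.36, adjusted p = 0.0078).

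Fd VI, GRMZM2G106190, rose and then fell. It had W levels of 4.35 and 3.11 FPKM, S1 levels of 15.4 and 9.42 and S3 levels of 0.98 and 0.92, and no condition overlapped another. The log2 fold changes were 1.48 for S1 against W (SE 0.25, adjusted p = 0.0072) and -2.74 for S3 against S1 (adjusted p = 0.00031), the one [+/-] pattern of the set, and both calls were made under all 18 alternatives. Against W it ended lower (-1.27, adjusted p = 0.0053).

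Fd III, GRMZM2G053458, was the only light reaction gene to be called higher in S3 than in S1. It had W levels of 49.98 and 38.5 FPKM, S1 levels of 54.45 and 52.9 and S3 levels of 160.1 and 128, with both S3 libraries above the other 4. The log2 fold change was 1.40 against S1 (SE 0.19, adjusted p = 0.0016) and 1.68 against W (adjusted p = 0.00051). GRMZM2G043162, annotated as ferredoxin-1, rose at the first step, with W levels of 15.3 and 9.61 FPKM and S1 levels of 23.3 and 41.6 (log2 fold change 1.29, adjusted p = 0.025), and it had S3 levels of 28.2 and 30.5. It was the [+/=] gene of the set, and its S1 call was lost without W replicate 2 or S1 replicate 2.

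The other ferredoxins stood between these. GRMZM2G059083 had S1 levels of 342 and 395 FPKM and S3 levels of 146 and 263 (log2 fold change -0.90, adjusted p = 0.061). The 3Fe-4S ferredoxin GRMZM2G125072 had S1 levels of 218 and 180.1 FPKM and S3 levels of 318 and 266 (log2 fold change 0.55, adjusted p = 0.074). The leaf isozyme of ferredoxin-NADP reductase, GRMZM2G059191, which draws electrons from ferredoxin to make NADPH, was the most abundant gene of the class. It had W levels of 916 and 612 FPKM, S1 levels of 654 and 742 and S3 levels of 492 and 664, overlapping between conditions (S3 against S1 -0.28, 95% interval -0.99 to 0.42, adjusted p = 0.49).

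**Figure D5:**
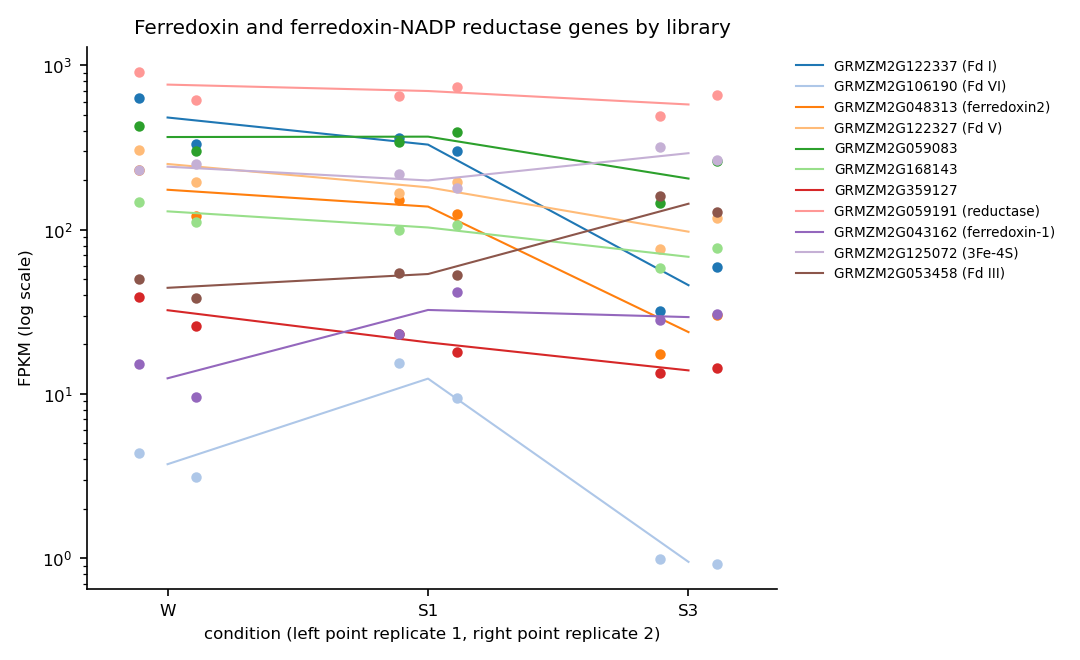
FPKM (y axis, log scale) of the 11 genes of ferredoxin and ferredoxin-NADP reductase tested in each library, grouped by condition, with a line a gene through the condition means. Fd I drops to 32.2 and 59.6 FPKM in S3, Fd VI rises to 15.4 and 9.42 in S1 and drops below 1 in S3, and Fd III reaches 160.1 and 128 in S3.

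Of the other thylakoid genes, the lumenal 19 kDa protein gene GRMZM2G441888 had S1 levels of 72.2 and 71.7 FPKM and S3 levels of 14.3 and 23.1 (log2 fold change -1.92, SE 0.23, adjusted p = 0.0009). Thylakoid-bound ascorbate peroxidase APx8 (GRMZM2G006791), which removes hydrogen peroxide made at PSI, had S1 levels of 272 and 320.1 FPKM and S3 levels of 105 and 169 (log2 fold change -1.14, adjusted p = 0.013). AC217965.2_FG012, annotated as thylakoid assembly8, had S1 levels of 5.27 and 4.175 FPKM and S3 levels of 10.1 and 6.30 (log2 fold change 0.66, adjusted p = 0.097).

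Enzymes that take electrons from ferredoxin for other purposes had 2 lower genes among the 5 tested in S3 against S1, with a median of -0.46. Ferredoxin-nitrite reductase (GRMZM2G079381), of nitrate assimilation, had W levels of 33.8 and 20.8 FPKM, S1 levels of 76.9 and 46.6 and S3 levels of 11.2 and 25.9. Its S1 libraries were above the other 4, though the first step was not called (log2 fold change 1.14, adjusted p = 0.1), and the second was (-1.75, adjusted p = 0.014). The catalytic chain of ferredoxin-thioredoxin reductase (GRMZM2G122793), which passes electrons to the thioredoxins that regulate carbon fixation, had S1 levels of 181 and 205 FPKM and S3 levels of 79.7 and 114 (log2 fold change -1.01, adjusted p = 0.012). This value lay close to the 2-fold limit. It ran from -1.26 to -0.75 over the alternatives. The call was lost without the bridge factor, after quantile normalization and at an adjusted p limit of 0.01. It was also lost without S1 replicate 2 or without S3 replicate 1. The variable chain, partner of the catalytic chain, was not called: GRMZM2G139803 and GRMZM2G157458 had log2 fold changes of 0.05 (95% interval -0.37 to 0.47) and 0.11 (95% interval -0.31 to 0.53). The difference between the chains was not tested. Ferredoxin-dependent glutamate synthase (GRMZM2G036609) had S1 levels of 173 and 229 FPKM and S3 levels of 115 and 182, which overlapped (log2 fold change -0.46, adjusted p = 0.2).

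Genes of the same membrane that the rule did not take in were looked at by description. The gamma subunit of the chloroplast ATP synthase (GRMZM2G048907), which turns the proton gradient into ATP, had S1 levels of 493 and 452 FPKM and S3 levels of 145 and 186 (log2 fold change -1.52, adjusted p = 0.0031). It was the lower one of 2 tested ATP synthase genes among 5 listed. The other, subunit a (GRMZM5G875287), had only 0.49 to 1.31 FPKM and was not called. In the xanthophyll cycle, which adjusts the dissipation of excess light, the opposing enzymes moved in opposite directions. Violaxanthin de-epoxidase (GRMZM2G027219) had S1 levels of 40.4 and 44.1 FPKM and S3 levels of 18.1 and 22.3 (log2 fold change -1.04, adjusted p = 0.0049), and zeaxanthin epoxidase (GRMZM2G127139) had 40.0 and 50.1 in S1 and 91.7 and 159 in S3 (log2 fold change 1.41, adjusted p = 0.0086). Of 16 thylakoid NAD(P)H dehydrogenase genes 10 were listed at 0 in every library and the 1 tested, at 7.64 to 13.4 FPKM, was not called. Of 2 early light-induced genes the 1 tested was low, at 1.55 to 2.98 FPKM, and was not called either. None of the 4 plastid lipid-associated genes was called between S1 and S3, though 3 had an adjusted p of at most 0.05. In S3 against W, 2 of the 4 were called lower and 1 higher. The light-harvesting-like gene LIL3 was not called in S3 against S1 (log2 fold change -0.44, adjusted p = 0.25). It was lower in S3 than in W (-1.13, adjusted p = 0.015).

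Some genes listed by description as C4 cell type markers also changed between S1 and S3. The 3 bundle sheath genes (ribulose bisphosphate carboxylase small subunit, NADP-malic enzyme and phosphoenolpyruvate carboxykinase) were all lower in S3 than in S1, and their sum was 2038 to 3055 FPKM in W, 2678 to 2784 in S1 and 785 to 1054 in S3. Of the 8 mesophyll genes tested among 9, 3 were lower and 1 was higher, and their sum was 2001 to 2789 FPKM in W, 2339 to 2626 in S1 and 680.1 to 1199 in S3. None of these listed genes was at 0 in all libraries, and their part in the light reaction values was not tested.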

How the data were processed

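All 6 libraries were used, with conditions and replicate numbers taken from the sample labels. Reads were aligned by the authors with bowtie and tophat to the B73 RefGen_v2 assembly and quantified with cuffdiff on its filtered gene set, and the deposited value of each gene and library is an FPKM. The submitters' notes and the study's methods name different tophat versions, so none is given. A further deposited table holds condition values over both replicates, together with cuffdiff fold changes and q-values. The latter were not used.

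W and S1 libraries came from one cuffdiff run and S3 from another. The S1 library mean divided by the table's S1 value had a median of 0.9933 over genes (91.1% of genes within 0.5% of it), and S3 libraries were multiplied by this factor. It cancels the difference between runs if S1 is taken as common to both.

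Genes with at least 1 FPKM in 2 or more libraries (20130) were fitted on log2(FPKM + 1) with limma 3.58.1 in R 4.3.3 (a mean per condition, eBayes with trend), and p-values were Benjamini-Hochberg adjusted over all of them. Calls used the thresholds of the study: an adjusted p of 0.05 or less, a log2 fold change of 1 or more in either direction, and 1 condition above the 25th percentile of FPKM. The study applied them to cuffdiff values, whereas here they were applied to limma values, so the calls need not match those of the study. Reads cannot be recovered from FPKM, so no count test was run. On simulated data (20130 genes, S3 against S1) the fit recovered 72.5% of genes changed by 1.5 log2 units and 87.0% of those changed by 2. It called 2 and 3 unchanged genes. The changed genes were drawn from the more abundant genes only, and noise was drawn separately for each gene. Replicate differences shared by many genes, as the light reaction genes had in W and S3, were not simulated. These rates need not hold for the light reaction genes. Python 3.11.15, numpy 2.4.6, pandas 2.3.3 and matplotlib 3.10.9 were used for tables and plots.

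Members were matched by words in the deposited descriptions, which 19801 genes lack, and placed in classes by description, GRMZM2G164558 by hand. The product ycf4 was added to those counted as plastid-encoded. In each class, named genes were the 4 most abundant, the 3 lowest and 3 highest in S3 against S1, and every member called in S1 or called higher (45 genes). Other members named in the text were chosen after their values were seen. Members, lists and rules were chosen with earlier results of these data known. Of the 76 members 50 matched a RefSeq gene table (assembly NAM-5.0, which is not the build of the files), none with a named symbol, so identifiers are given as deposited, without coordinates or sequences. Alternatives were other scalings, filters, pseudocounts and thresholds, the replicate block, no bridge factor, and each library left out. The latter leaves a condition with 1 library, which is assumed to vary like the others.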

Additional observations from a re-analysis of the deposited data

How the results depend on the processing

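Of 2424 values of single genes under an alternative, 2260 stayed on their side of the threshold, 138 lost a call and 26 gained one. Among the 2260, 63 changed sign in a value that was called in neither setting, and 0 called values reversed. Part of this was fixed beforehand. A stricter limit can only lose calls, and dropping the fold change threshold can only add them. Leaving out a library of the condition not compared does not alter a fold change. In S1 against W the 4 calls became 2 without the filter on low values and 1 at an adjusted p limit of 0.01, and 2 to 5 with 1 library left out. The 31 genes lower in S3 than in S1 became 18 without the filter and 19 at the limit of 0.01, and 19 to 31 with 1 library left out. Without the filter the 31 genes all stayed past 2-fold, and more genes entered the fit (30955). For S3 against W, leaving out 1 library gave 26 to 42 lower genes against 39.

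Another scaling moved the median of all genes in S3 against W from 0.16 to -0.04 (upper quartile), 0.02 (median of ratios) and -0.03 (quantile). In S3 against S1 the members' median minus that of all genes was -1.33, and -0.998 after quantile normalization, where 26 genes were lower. The light-harvesting median in that comparison ranged from -2.48 to -1.46, the PSI median from -1.51 to -0.78 and the PSII median from -1.14 to -0.84 over all alternatives. In S1 against W the light-harvesting, PSI and ferredoxin medians turned above 0 without W replicate 1 (0.22, 0.05 and 0.19).

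Replicate numbers mark a read length and not a shared plant. Deviations of same-numbered replicates correlated at 0.14 (W and S1), -0.09 (W and S3) and 0.06 (S1 and S3). With the replicate block, 26 genes were lower in S3 than in S1 and 35 lower than in W. FPKM without counts give no limit of detection for the genes listed at 0.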
